A study of Mus musculus with 2 samples.

Results

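The mitochondrial genome of the mouse carries 37 genes, and all 37 were found among the 43346 Ensembl gene rows of the deposited tables by the mt- prefix of their GENCODE M21 symbols. They comprise 13 messenger RNAs, 2 ribosomal RNAs and 22 transfer RNAs. They were measured in erythroid progenitors called CFU-E, the colony-forming unit of the red cell lineage, taken as primary cells from adult male mice of strain C57BL/6J at 5 to 6 weeks of age. The data come from 2 libraries, replicate 1 and replicate 2, labelled as biological replicates of 1 group with no treatment or second genotype named. Each was made with the ScriptSeq method from 100 ng of total RNA after ribosomal RNA depletion. The labels do not say whether the replicates came from separate animals or pools, so a spread between them may be partly technical. With 1 group of 2 libraries no test between groups was possible, and values are given for each library, with a mean and SD (n = 2) where a level is summarised.

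Mitochondrial DNA is a small circle with no introns, and both of its strands are transcribed into long precursors that run through many genes. Transfer RNAs lie between most of the messenger and ribosomal RNAs, and cutting them out frees the neighbours as mature transcripts. The messenger RNAs encode core subunits of respiratory complexes I, III, IV and V, the machinery of electron transport and ATP synthesis, while complex II is encoded wholly in the nucleus. Red cell precursors also depend on mitochondria for haem synthesis, and they discard these organelles at the end of maturation.

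Replicate 1 held 62576357 expected counts and replicate 2 held 36889517. An expected count is an estimated number of reads in which a read that fits several genes is shared between them. Levels are given as TPM, which divides counts by effective length and scales each library to the same sum. Effective length is the number of positions at which a fragment can start. The deposited lengths imply mean fragments of 224 bases in replicate 1 and 183 bases in replicate 2. The labels give sizes of 209 to 891 bases for replicate 1 and 186 to 747 bases for replicate 2. The implied mean of replicate 2 lies below its labelled range. As a check of the labelled cell type, 9 of 9 erythroid markers had at least 1 TPM in both libraries, where 24.0% of protein-coding genes did, with medians of 259.9 TPM in replicate 1 and 172 TPM in replicate 2. Granulocyte markers were also present, at 1 TPM or more for 7 of 7 genes and at summed levels of 1190 TPM in replicate 1 and 599 TPM in replicate 2. So were 4 of 5 monocyte and macrophage markers, led by Lyz2 at 103 TPM in replicate 1 and 62.4 TPM in replicate 2, and 3 of 4 B cell markers, whose highest, Cd79b, had 6.14 TPM in replicate 1 and 2.30 TPM in replicate 2. The stem and early progenitor markers Cd34, Kit, Flt3 and Meis1 were all under 1 TPM in both libraries. Among them Kit, the stem cell factor receptor, which CFU-E cells also carry, had 0.42 TPM in replicate 1 and 0.51 TPM in replicate 2. The part of other cell types in the mitochondrial levels was not tested. In bulk RNA, a change in the share of a cell type and a change in RNA per cell cannot be told apart.

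Mitochondrial genes held 32.6% of expected counts in replicate 1 (Wilson 95% interval 32.621 to 32.645%) and 23.6% in replicate 2 (23.619 to 23.647%), a mean of 28.1 ± 6.36% (SD, n = 2). These intervals cover counting error at most, and they treat reads as independent, which reads amplified by PCR are not. They also leave out the uncertainty of sharing reads between genes. The distance between the libraries was far wider than either interval. Messenger RNAs took 26.7% of all counts in replicate 1 and 16.4% in replicate 2. The ribosomal RNAs took 5.93% in replicate 1 and 7.26% in replicate 2. By share of counts the 2 classes thus differed between the libraries in opposite directions. By share of TPM both were higher in replicate 1. Messenger RNAs had 16.7% in replicate 1 and 4.72% in replicate 2, and ribosomal RNAs 1.75% in replicate 1 and 1.36% in replicate 2. TPM ran higher in replicate 1 across all genes, with a median log2 ratio of replicate 1 over replicate 2 of 0.66. Relative to that median both ribosomal RNAs were lower in replicate 1, with mt-Rnr1 at -0.29 and mt-Rnr2 at 0.45. Within the mitochondrial counts, messenger RNAs made up 81.8% in replicate 1 and 69.3% in replicate 2, and ribosomal RNAs the remaining 18.2% and 30.7%. By TPM the 37 genes held 18.4% in replicate 1 and 6.07% in replicate 2, lower than by counts in both.

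At 1 TPM or more in both libraries stood 15 of the 37 genes, namely all 13 messenger RNAs and both ribosomal RNAs, where 13.2% of the genes matched to GENCODE M21 and 24.0% of protein-coding genes passed the same threshold. The 22 transfer RNAs had 0 counts in both libraries. They are 59 to 75 bases long, and their effective length was 0 in both tables, as it was for no gene longer than 118 bases in replicate 1 or 98 bases in replicate 2. Of all genes with effective length 0, only 24 of 3932 (0.61%) had any count in replicate 1 and 12 of 2176 (0.551%) in replicate 2. A zero for these genes is therefore no measure of transfer RNA abundance. The shortest, the serine transfer RNA mt-Ts2 (chrM:11613-11671, mm10, plus strand), and the longest, the leucine transfer RNA mt-Tl1 (chrM:2676-2750, plus strand), are shown whole from the GENCODE M21 transcripts to let their size be seen against fragments of 224 and 183 bases.
mt-Ts2: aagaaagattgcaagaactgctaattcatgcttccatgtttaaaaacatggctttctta
mt-Tl1: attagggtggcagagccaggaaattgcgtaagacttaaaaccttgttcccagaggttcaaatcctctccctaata
The others were mt-Tf, mt-Tv, mt-Ti, mt-Tq, mt-Tm, mt-Tw, mt-Ta, mt-Tn, mt-Tc, mt-Ty, mt-Ts1, mt-Td, mt-Tk, mt-Tg, mt-Tr, mt-Th, mt-Tl2, mt-Te, mt-Tt and mt-Tp, each named by the letter of the amino acid it carries. Of the 22, 14 lie on the heavy strand transcript and 8 on the light strand transcript.

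The ribosomal RNAs form the small and large subunit cores of the mitochondrial ribosome and are encoded next to each other at the start of the heavy strand transcript. mt-Rnr1 (ENSMUSG00000064337.1, chrM:70-1024), the small subunit RNA, had 1644 TPM in replicate 1 and 2014 TPM in replicate 2 (mean 1829 ± 262). mt-Rnr2 (ENSMUSG00000064339.1, chrM:1094-2675), the large subunit RNA, had 15823 TPM in replicate 1 and 11569 TPM in replicate 2 (mean 13696 ± 3008). The large subunit RNA thus exceeded the small subunit RNA 9.63-fold in replicate 1 and 5.74-fold in replicate 2, although both are parts of 1 ribosome. Against the median messenger RNA, mt-Rnr2 was 7.59-fold higher in replicate 1 and 17.96-fold higher in replicate 2. The corresponding ratio of mt-Rnr1 lay below 1 in replicate 1, at 0.788, and above 1 in replicate 2, at 3.13, so it has no direction that holds in both. The median depends on how reads were shared with nearly identical nuclear copies, described further on. With the counts of those copies added, the ratio of mt-Rnr2 was 3.51 in replicate 1 and 6.89 in replicate 2. That of mt-Rnr1 was then 0.364 in replicate 1 and 1.20 in replicate 2. The libraries were depleted of ribosomal RNA before sequencing, and the labels do not list the RNAs that the depletion targeted. These are levels after depletion, and the part of depletion in them was not tested.

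Cytochrome c oxidase (complex IV) gave most of the messenger RNA reads, with 80.1% of mitochondrial messenger RNA counts in replicate 1 and 86.4% in replicate 2 from 3 genes. mt-Co1 (ENSMUSG00000064351.1, chrM:5328-6872), the catalytic core subunit, had 13130492 counts in replicate 1 and 5073719 in replicate 2, which was 64.3% and 58.2% of all mitochondrial counts. Its level was 60760.0 TPM in replicate 1 and 24667 TPM in replicate 2 (mean 42713 ± 25522). mt-Co2 (ENSMUSG00000064354.1, chrM:7013-7696), which accepts electrons from cytochrome c, was listed at only 732.5 TPM in replicate 1 and 402 TPM in replicate 2. For mt-Co3 (ENSMUSG00000064358.1, chrM:8607-9390), another core subunit, the tables list 2085 TPM in replicate 1 and 1238 TPM in replicate 2. As deposited, mt-Co1 exceeded mt-Co2 82.9-fold in replicate 1 and 61.3-fold in replicate 2, and both mt-Co2 and mt-Co3 have a nearly identical nuclear copy, described further on, to which most of their reads were assigned.

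The ATP synthase (complex V) subunits mt-Atp8 and mt-Atp6 are read from 1 bicistronic transcript in overlapping frames. mt-Atp8 (ENSMUSG00000064356.3, chrM:7766-7969), a small membrane subunit, had 73492 TPM in replicate 1 and 14407 TPM in replicate 2 (mean 43950.0 ± 41779). The level of mt-Atp6 (ENSMUSG00000064357.1, chrM:7927-8607), which forms the proton channel with the rotor ring, was 16376 TPM in replicate 1 and 1788 TPM in replicate 2. By TPM, mt-Atp8 was the highest of 21474 protein-coding genes in replicate 1 and had rank 2 in replicate 2, where mt-Co1 came first. This rank rests on very few positions. mt-Atp8 is 204 bases long, and its effective length was 23.67 bases in replicate 1 and 43.53 bases in replicate 2. Its counts, 284275 in replicate 1 and 94645 in replicate 2, were 1.39% and 1.09% of mitochondrial counts. Counted per kilobase of full length, mt-Atp8 had rank 3 among the messenger RNAs in replicate 1 and rank 2 in replicate 2, with mt-Co1 first in both. mt-Atp8 over mt-Atp6 was 4.49-fold in replicate 1 and 8.06-fold in replicate 2 by TPM, but 0.774-fold in replicate 1 and 2.35-fold in replicate 2 by counts per kilobase. mt-Atp6 also has a nearly identical nuclear copy, described further on, whose share of the reads differed between the libraries. With the counts of that copy added to mt-Atp6, the TPM ratio was 3.84-fold in replicate 1 and 2.56-fold in replicate 2. By counts per kilobase mt-Atp8 was then below mt-Atp6 in both. The whole mt-Atp8 gene is printed from the GENCODE M21 transcripts (mm10, chrM:7766-7969, plus strand), since it is shorter than an average fragment of replicate 1. Capitals mark the 43 bases that it shares with the start of mt-Atp6. The deposited posterior SD of the mt-Atp8 count, its spread over possible read assignments, was 0 in both libraries. No read of mt-Atp8 was thus shared with another gene.
mt-Atp8: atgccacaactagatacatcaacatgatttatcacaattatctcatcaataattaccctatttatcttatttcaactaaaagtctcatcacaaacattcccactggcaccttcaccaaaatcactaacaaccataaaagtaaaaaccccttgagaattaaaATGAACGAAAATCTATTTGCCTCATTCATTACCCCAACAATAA

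Complex I, NADH dehydrogenase, takes 7 of the 13 messenger RNAs but gave 8.87% of messenger RNA counts in replicate 1 and 7.70% in replicate 2. mt-Nd1 (ENSMUSG00000064341.1, chrM:2751-3707), next to the ribosomal genes, was the highest of them as deposited, at 4510.1 TPM in replicate 1 and 1679 TPM in replicate 2. mt-Nd4 (ENSMUSG00000064363.1, chrM:10167-11544) had 2441 TPM in replicate 1 and 644 TPM in replicate 2. For mt-Nd3 (ENSMUSG00000064360.1, chrM:9459-9806) the values were 1890 TPM in replicate 1 and 593 TPM in replicate 2. All of these subunits belong to the membrane arm of the complex. mt-Nd2 (ENSMUSG00000064345.1, chrM:3914-4951) was listed at 1172 TPM in replicate 1 and 314 TPM in replicate 2. mt-Nd5 (ENSMUSG00000064367.1, chrM:11742-13565), the longest messenger RNA, reached 1039.8 TPM in replicate 1 and 350.4 TPM in replicate 2. Lowest of all 13 stood mt-Nd4l (ENSMUSG00000065947.3, chrM:9877-10173), with 56.6 TPM in replicate 1 and 4.66 TPM in replicate 2. mt-Nd4l and mt-Nd4 share 7 bases and come from 1 bicistronic transcript, yet mt-Nd4 over mt-Nd4l was 43.1-fold in replicate 1 and 138-fold in replicate 2 as deposited. mt-Cytb (ENSMUSG00000064370.1, chrM:14145-15288), cytochrome b and the mitochondrial subunit of complex III, had 2244.5 TPM in replicate 1 and 882 TPM in replicate 2.

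**Figure D1:**
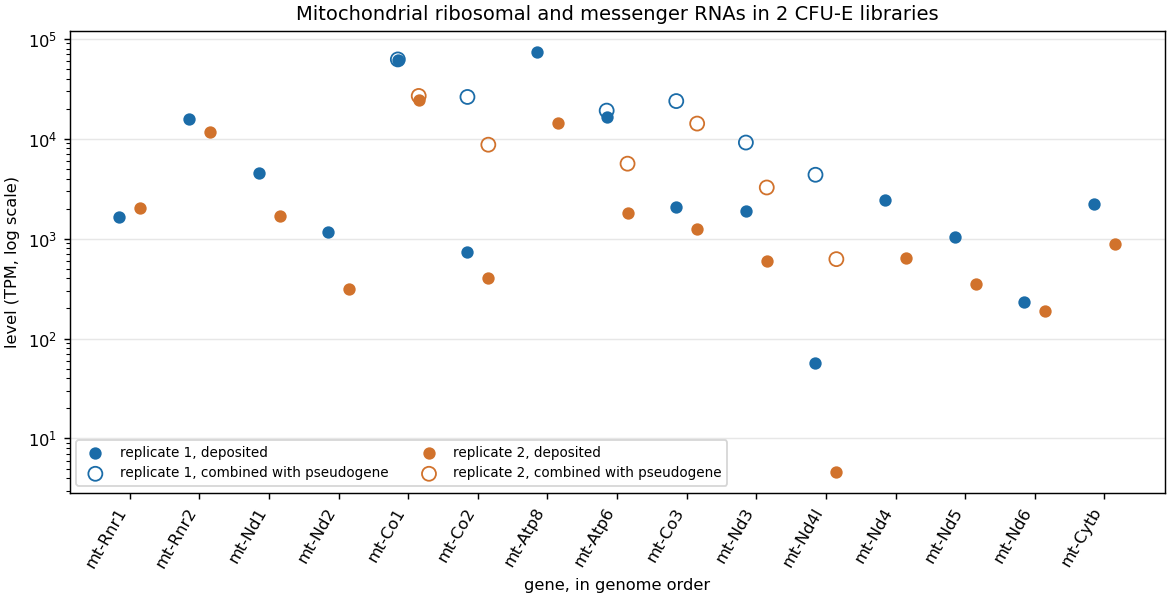
Level of each mitochondrial ribosomal and messenger RNA in TPM (log axis), in genome order, with filled points for the deposited values and open points for the gene and its near-identical nuclear pseudogene combined. Combining moved mt-Nd4l, mt-Co2, mt-Co3 and mt-Nd3 most; replicate 1 lay above replicate 2 for all but mt-Rnr1.

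The order of the messenger RNAs by TPM was similar in the libraries, with a Spearman rho of 0.951 over 13 genes, given as a description of values that share lengths and sequence. Some ratios within a library were close: mt-Co1 over mt-Cytb was 27.1-fold in replicate 1 and 27.97-fold in replicate 2, and mt-Co1 over mt-Nd1 13.5-fold in replicate 1 and 14.7-fold in replicate 2. Others were not, as mt-Nd1 over mt-Nd2 was 3.85-fold in replicate 1 and 5.35-fold in replicate 2, although both genes lie near the start of the heavy strand transcript. Over the 12 heavy strand messenger RNAs, the start position had a Spearman rho of -0.29 with TPM in replicate 1 and -0.31 in replicate 2. In replicate 1 alone 11 of the 13 kept the rank they had by mean TPM, and in replicate 2 alone 9 did. For mt-Cytb (mean 1563 ± 963), mt-Nd4 (mean 1542 ± 1270), mt-Co3 (mean 1661 ± 599) and mt-Nd3 (mean 1241 ± 917) the means differed by less than each SD. Each SD includes a TPM difference between the libraries that ran across all genes, with a median log2 ratio of 0.66. Within each library mt-Cytb had rank 6 and mt-Nd3 rank 8. mt-Nd4 and mt-Co3 changed places, at ranks 5 and 7 in replicate 1 and 7 and 5 in replicate 2.

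mt-Nd6 (ENSMUSG00000064368.1, chrM:13552-14070, minus strand) is the single messenger RNA of the light strand transcript and encodes a membrane subunit of complex I. Its level was 230.7 TPM in replicate 1 and 191 TPM in replicate 2 (mean 211 ± 28.3), a smaller difference between the libraries by TPM than for the other messenger RNAs, though not on scaled counts. The median of the 12 heavy strand messenger RNAs exceeded it 9.38-fold in replicate 1 and 4.00-fold in replicate 2. mt-Nd6 gave 0.0669% of messenger RNA counts in replicate 1 and 0.161% in replicate 2. Its last 14 bases overlap the end of mt-Nd5 on the other strand. The deposited posterior SD of the mt-Nd6 count was 0 in both libraries, so no read was shared with mt-Nd5. The strand setting of the counting is not given in the sources used here. If strand was not used, reads from the opposite precursor cannot be told apart along the gene. The bias between the strands shows in the base composition: G made up 28.1% of mt-Nd6, against 5.88% to 16.1% of the heavy strand messenger RNAs, and C 5.97% of mt-Nd6. The first 60 bases of mt-Nd6 (chrM:14011-14070, minus strand) and of its neighbour mt-Nd5 (chrM:11742-11801, plus strand) are shown with G in capitals, from the GENCODE M21 transcripts on mm10.
mt-Nd6: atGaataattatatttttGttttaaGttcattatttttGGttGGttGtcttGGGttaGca
mt-Nd5: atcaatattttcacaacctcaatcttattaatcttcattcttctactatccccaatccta
There are 12 G in the mt-Nd6 stretch and 0 in the mt-Nd5 stretch.

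Reads from 7 of the 13 messenger RNAs had a second place to go. Each of the 7 has a pseudogene transcript on chromosome 1 that matched it at 99% identity or more over at least 95% of the pseudogene, and all 7 stand within chr1:24611535-24616197 on the minus strand. They are unprocessed pseudogenes, copies of mitochondrial DNA inserted into the nuclear genome, and along the minus strand they keep the order of the mitochondrial genes from mt-Co1 to mt-Nd4. In 5 pairs the aligned bases were identical. The pseudogenes together held 4656302 counts in replicate 1 and 2618997 in replicate 2, which was 7.44% and 7.10% of each library. With these counts added, the mitochondrial share was 40.1% in replicate 1 and 30.7% in replicate 2. The annotation holds no copy of mt-Atp8 in this run, and the genome sequence between the annotated copies was not examined. A further 8 less similar pseudogenes held at most 975 counts each.

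The split between gene and pseudogene went far toward the pseudogene in some pairs and not in others. For mt-Co2, 97.2% of the pair's counts in replicate 1 and 95.4% in replicate 2 were assigned to Gm28661 (chr1:24614885-24615565), which is identical over all of its 681 bases. Gm28437 (chr1:24613189-24613971), identical to mt-Co3 over 783 bases, took 91.3% in both replicates. The mt-Atp6 pair was divided unevenly between the libraries. Gm10925 (chr1:24613974-24614651) took 14.4% of its counts in replicate 1 and 68.2% in replicate 2, with 678 identical bases. Gm29216 (chr1:24615706-24616197), a copy of the last part of mt-Co1, took 2.37% in replicate 1 and 8.05% in replicate 2. These are the 4 pseudogenes of highest mean count in the tables. The remaining pairs, singled out after their values were seen, were found by the same identity rule: Gm28438 took 79.4% of the mt-Nd3 pair in replicate 1 and 81.8% in replicate 2, and Gm10222 took 98.7% of the mt-Nd4l pair in replicate 1 and 99.3% in replicate 2. Gm28439, identical to the first 876 bases of mt-Nd4, took 0.018% in replicate 1 and 0.0082% in replicate 2.

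The bases that can separate a pair are few, and the windows that hold them are shown from the GENCODE M21 transcripts on mm10. mt-Co1 (chrM:6381-6420, plus strand) and Gm29216 (chr1:24616158-24616197, minus strand) differ at 6 of 492 compared bases, all inside this window and in capitals. Counted from the first base of mt-Co1, they are T1056A, C1057T, A1059G, A1060G, C1062A and A1066T, with the base of mt-Co1 first.
mt-Co1: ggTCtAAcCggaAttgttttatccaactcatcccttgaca
Gm29216: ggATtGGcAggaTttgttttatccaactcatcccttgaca
mt-Nd3 (chrM:9459-9498, plus strand) and Gm28438 (chr1:24613080-24613119, minus strand) differ at 1 of 345 bases, T3C counted from the first base of mt-Nd3, in capitals.
mt-Nd3: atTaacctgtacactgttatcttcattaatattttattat
Gm28438: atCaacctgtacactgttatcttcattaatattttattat
For mt-Co2 (chrM:7667-7696, plus strand) and Gm28661 (chr1:24614885-24614911, minus strand) only the length separates the transcripts, since the pseudogene lacks the last 3 bases, the stop codon, in capitals.
mt-Co2: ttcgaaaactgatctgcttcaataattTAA
Gm28661: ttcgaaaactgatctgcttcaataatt
The same holds for mt-Nd4l (chrM:10144-10173, plus strand) and Gm10222 (chr1:24612407-24612433, minus strand).
mt-Nd4l: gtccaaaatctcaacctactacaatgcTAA
Gm10222: gtccaaaatctcaacctactacaatgc

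How firmly the split was held can be read from the deposited posterior counts, which average over the possible assignments. For mt-Co2 the posterior mean was 307460 reads in replicate 1 with a posterior SD of 264201, and 195451 in replicate 2 with an SD of 131469, against expected counts of 55232 in replicate 1 and 30468 in replicate 2. The posterior SD of Gm28661 was the same number in each library, so a read gained by one was lost by the other. The credibility interval of mt-Co2 ran 11.2-fold from its lower to its upper bound in replicate 1 and 7.54-fold in replicate 2, and its deposited TPM lay below the interval in both. In mt-Co3 the interval spanned 7.84-fold in replicate 1 and 7.74-fold in replicate 2. That of mt-Atp6 spanned 1.92-fold in replicate 1 and 2.42-fold in replicate 2, and that of mt-Nd4l 2.05-fold in replicate 1 and 31.6-fold in replicate 2. For the other 11 ribosomal and messenger RNAs the widest interval spanned 1.11-fold. The sum of each pair was the same by expected and by posterior counts, for example 1976037 for mt-Co2 with Gm28661 in replicate 1 and 660431 in replicate 2. By these intervals the levels of mt-Co2, mt-Co3, mt-Atp6 and mt-Nd4l are uncertain as single genes, while the pair sums are fixed by the reads. The interval of mt-Nd3 spanned only 1.08-fold in replicate 1 and 1.11-fold in replicate 2. Yet 79.4% of its pair in replicate 1 and 81.8% in replicate 2 went to Gm28438. That copy differs at 1 of 345 aligned bases and lacks 3 end bases, and whether the split is right was not tested.

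**Figure D2:**
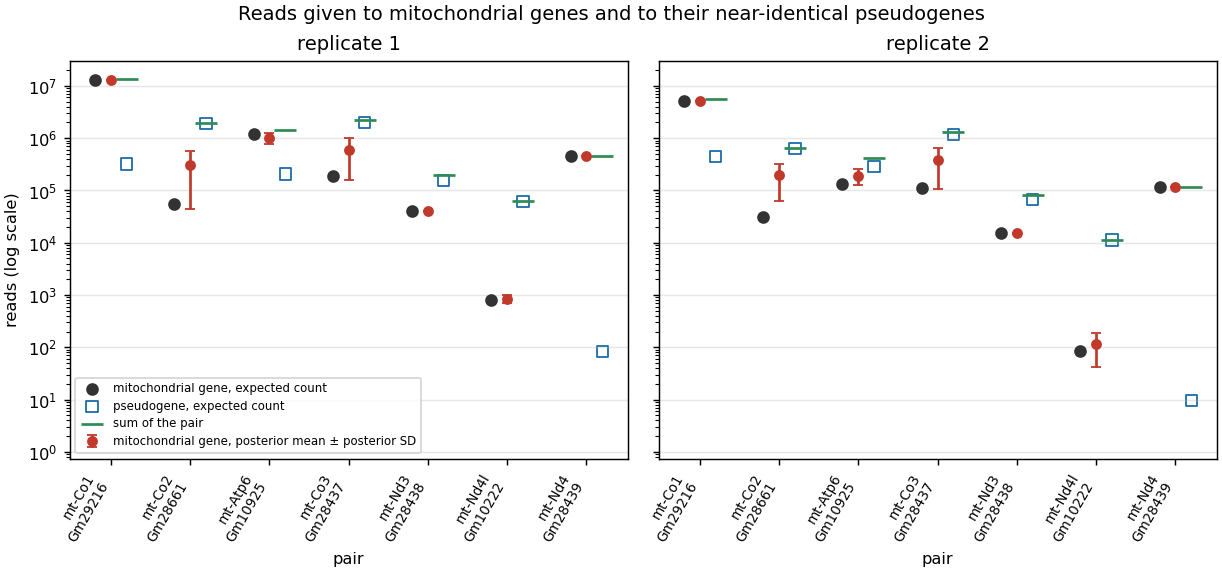
Reads assigned to 7 mitochondrial genes and to their near-identical pseudogenes (log axis), by library. Black points and blue squares are expected counts, red points with bars are the posterior mean ± posterior SD of the mitochondrial gene, and green lines are pair sums; the bars are wide for mt-Co2 and mt-Co3, and the mt-Atp6 pair is split differently in the 2 libraries.

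With the counts of each pair combined over the effective length of the mitochondrial gene, the low members moved up. mt-Co2 came to 26207 TPM in replicate 1 and 8717 TPM in replicate 2, and mt-Co3 to 23828 TPM in replicate 1 and 14188 TPM in replicate 2. mt-Co1 then exceeded mt-Co2 2.37-fold in replicate 1 and 3.08-fold in replicate 2. Among the rest, mt-Nd3 came to 9163 TPM in replicate 1 and 3252 TPM in replicate 2, above mt-Nd1 in both. mt-Nd4l came to 4359.9 TPM in replicate 1 and 623 TPM in replicate 2, so that mt-Nd4 over mt-Nd4l was 0.56-fold in replicate 1 and 1.03-fold in replicate 2. mt-Nd6, the light strand gene, was the lowest of the 13 in both libraries on this scale. The heavy strand median exceeded it 29.6-fold in replicate 1 and 12.9-fold in replicate 2. Combined values credit all reads of a pair to the mitochondrial gene, and how many came from the nuclear copy was not tested.

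The libraries were compared by the log2 ratio of replicate 1 over replicate 2 on counts scaled by TMM, a scaling that centres most genes on 0. Over all 10403 genes with a mean count of 50 or more the median was 0.02, and over the 15 mitochondrial genes with counts it was 0.72. At least 2-fold higher in replicate 1 were 4 of the 15, where 10.6% of all genes passed. At least 2-fold higher in replicate 2 were 0 of the 15, where 10.5% passed. Among the 479 genes with a mean count of 10000 or more, which are closer to these genes in depth, 1.46% passed 2-fold toward replicate 1 and 7.72% toward replicate 2, and the interquartile range of their ratios ran from -0.15 to 0.14. mt-Nd4l lies below that count, and without it 3 mitochondrial genes were past 2-fold toward replicate 1. Higher in replicate 1 by any amount were 12 of the 15, where 51.2% of all genes and 53.7% of the 479 were. No p-value can be given, with 1 library on each side.

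The 12 that were higher in replicate 1 were the 12 heavy strand messenger RNAs, and the 3 that were lower were both ribosomal RNAs and mt-Nd6. The 4 past 2-fold were mt-Nd4l (2.52), mt-Atp6 (2.48), mt-Nd4 (1.28) and mt-Nd2 (1.24). Between 0.66 and 0.94 stood mt-Nd5 (0.94), mt-Atp8 (0.88), mt-Nd1 (0.75), mt-Nd3 (0.72), mt-Cytb (0.69) and mt-Co1 (0.66). mt-Co2 (0.15) and mt-Co3 (0.06) were close to the median of all genes. On the other side, mt-Rnr1 was at -0.97, mt-Nd6 at -0.50 and mt-Rnr2 at -0.19. Combining pairs brought mt-Atp6 to 1.05 and mt-Nd4l to 1.73, raised mt-Co2 to 0.87 and left mt-Co3 at 0.05; the same 4 genes stayed past 2-fold, and all 12 heavy strand messenger RNAs stayed above 0. The directions of mt-Nd6 and mt-Rnr2 depend on the scale. By TPM they were higher in replicate 1, at 0.27 and 0.45, but there the median of all genes was 0.66, so relative to it they were still lower. mt-Co2 and mt-Co3 turned to -0.37 and -0.46 when counts were scaled by the summed mitochondrial count. The fragment size implied by the deposited lengths moved with the library, with a mean of 224 bases in replicate 1 and 183 bases in replicate 2. Its part in these ratios was not tested. Erythroid markers had a median ratio of 0.24 and granulocyte markers 0.25, and their part was likewise not tested.

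**Figure D3:**
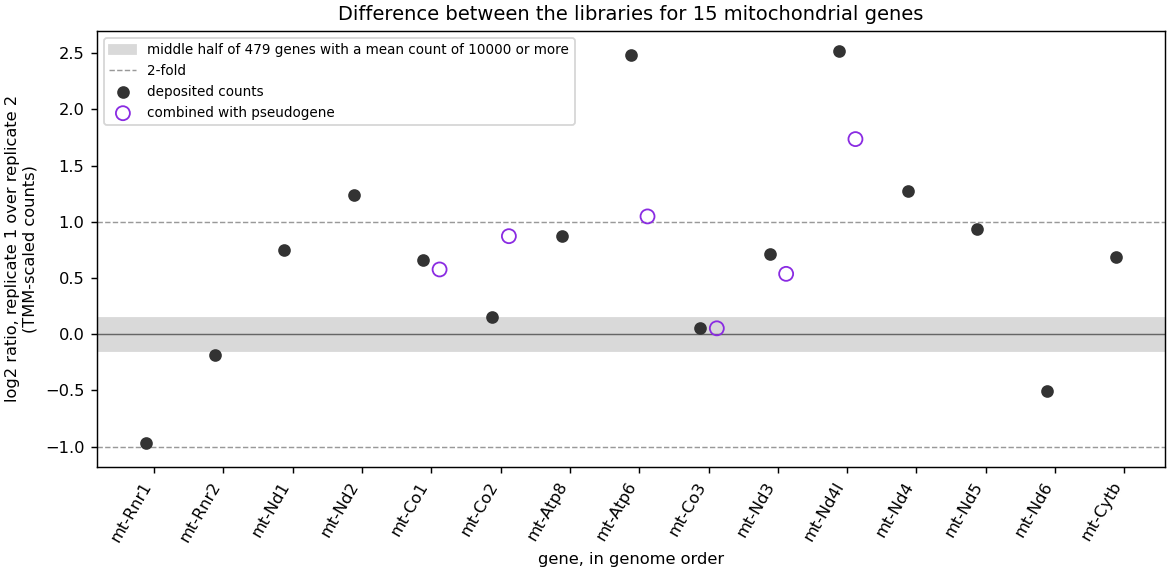
Log2 ratio of replicate 1 over replicate 2 on TMM-scaled counts for the 15 mitochondrial genes with counts, in genome order; filled points are deposited counts, open points are gene and pseudogene combined, the grey band is the interquartile range of 479 high-count genes (-0.15 to 0.14), and dashed lines mark 2-fold. The 12 heavy strand messenger RNAs lie above 0, and mt-Rnr1, mt-Rnr2 and mt-Nd6 lie below it.

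Respiratory complexes are built from both genomes, so the mitochondrial messenger RNAs were set against the 75 nuclear-encoded subunits of complexes I to V. Of these, 69 (92.0%) had at least 1 TPM in both libraries, where 24.0% of protein-coding genes did, with a median over all 75 of 7.56 TPM in replicate 1 and 4.76 TPM in replicate 2. The highest was Atp5b, the catalytic beta subunit of ATP synthase, at 136.5 TPM in replicate 1 and 47.03 TPM in replicate 2. By contrast, the 13 mitochondrial messenger RNAs had medians of 2085 TPM in replicate 1 and 644 TPM in replicate 2. They held 57.4% of protein-coding TPM in replicate 1 and 38.6% in replicate 2, which includes mt-Atp8 with its very short effective length. By counts their share of the protein-coding total was lower, at 36.6% in replicate 1 and 26.0% in replicate 2. By mean TPM 6 of them were among the 10 highest protein-coding genes and 11 among the 50 highest. The gap was present in every complex with mitochondrial subunits.

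In complex I the median mitochondrial subunit exceeded the median of 36 nuclear subunits 204-fold in replicate 1 and 99.7-fold in replicate 2. Its nuclear subunits ranged by mean TPM from Ndufv1, the flavoprotein that binds NADH, at 27.4 TPM in replicate 1 and 11.9 TPM in replicate 2, down to Ndufa11, an accessory subunit, at 0.61 TPM in replicate 1 and 0.72 TPM in replicate 2. As deposited, mt-Nd4l stood at 2.07 times the highest nuclear subunit in replicate 1 and at 0.311 times in replicate 2. On the combined scale the lowest mitochondrial subunit exceeded the highest nuclear one 8.42-fold in replicate 1 and 12.7-fold in replicate 2. Only mitochondrial genes gain reads on that scale: nuclear subunits stayed as deposited, and no search was made for their own pseudogenes. In complex III mt-Cytb exceeded the nuclear median 346-fold in replicate 1 and 178-fold in replicate 2. By mean TPM the highest nuclear subunit there was Uqcrb, a small accessory subunit, at 29.99 TPM in replicate 1 and 12.2 TPM in replicate 2. In replicate 2 alone Uqcrh was higher, at 18.58 TPM. Uqcr10, another accessory subunit, was the lowest at 2.56 TPM in replicate 1 and 1.96 TPM in replicate 2.

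For complex IV the excess was 116-fold in replicate 1 and 135-fold in replicate 2 as deposited. On the combined scale, with nuclear subunits again as deposited, complex IV had an excess of 1456-fold in replicate 1 and 1549-fold in replicate 2. Its nuclear subunits ranged from Cox6c, an accessory membrane subunit, at 61.7 TPM in replicate 1 and 27.1 TPM in replicate 2, to Cox5a, an accessory subunit on the matrix side, at 3.09 TPM in replicate 1 and 2.79 TPM in replicate 2. Complex V had the largest excess as deposited, 3969.5-fold in replicate 1 and 1072.5-fold in replicate 2, which includes mt-Atp8 with its very short effective length. Atp5l, the g subunit of ATP synthase, was the lowest nuclear member there, at 0.06 TPM in replicate 1 and 0 TPM in replicate 2. Complex II, with no mitochondrial subunit, ranged from Sdha, the flavoprotein of succinate dehydrogenase, at 12.25 TPM in replicate 1 and 8.51 TPM in replicate 2, to Sdhc, a membrane anchor, at 0.65 TPM in replicate 1 and 1.15 TPM in replicate 2. These are RNA levels and carry no measure of protein.

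**Figure D4:**
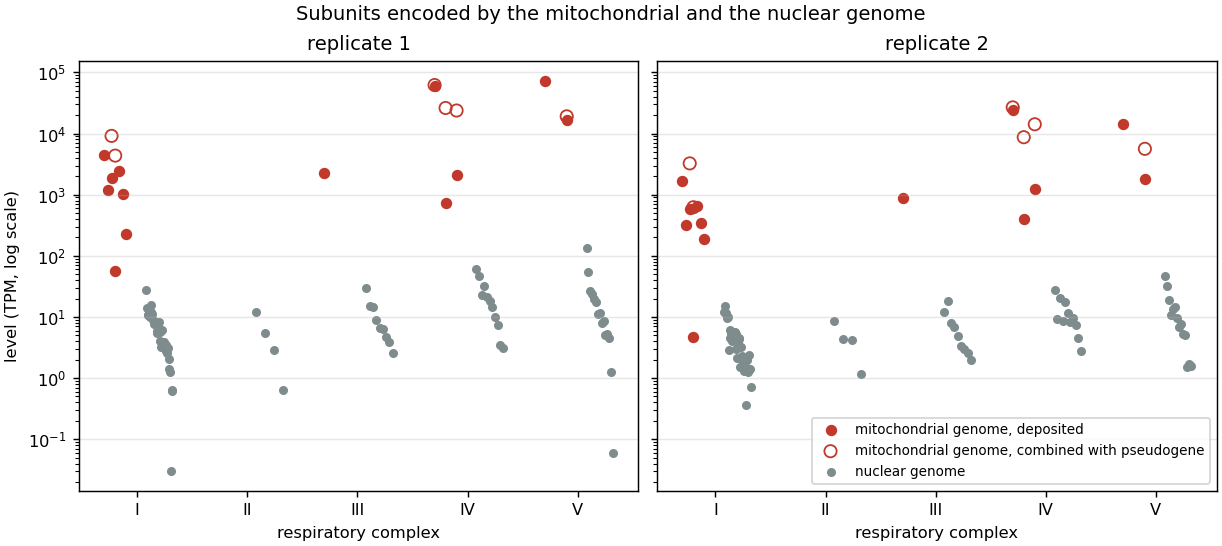
Level in TPM (log axis) of subunits encoded by the mitochondrial genome (red, filled as deposited, open combined with the pseudogene) and by the nuclear genome (grey) for complexes I to V, by library; nuclear genes at 0 TPM are not drawn. Deposited mt-Nd4l in replicate 2, at 4.66 TPM, is the red point among the grey ones, and complex II has grey points only.

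Nuclear genes transcribe mitochondrial DNA and mature its RNAs. Of 83 such genes, 24 (28.9%) had at least 1 TPM in both libraries, a share near the 24.0% of protein-coding genes, and the median was 0.77 TPM in replicate 1 and 0.60 TPM in replicate 2. In transcription and replication 3 of 18 passed. Polg, the catalytic subunit of the mitochondrial DNA polymerase, had 6.28 TPM in replicate 1 and 2.97 TPM in replicate 2. Tfam, which packages mitochondrial DNA and activates its promoters, had 3.57 TPM in replicate 1 and 1.36 TPM in replicate 2. Primpol, a primase and polymerase, and Mterf3, of the termination factor family, were at 2.83 and 2.53 TPM in replicate 1 and at 0.45 and 0.64 TPM in replicate 2.

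In RNA processing and decay 7 of 20 passed. Rexo2, which degrades short RNA fragments, had 8.28 TPM in replicate 1 and 3.72 TPM in replicate 2, and Lrpprc, which stabilises mitochondrial messenger RNAs, had 4.14 TPM in replicate 1 and 4.58 TPM in replicate 2. Grsf1, a protein of mitochondrial RNA granules, had 4.68 TPM in replicate 1 and 2.41 TPM in replicate 2. Pnpt1, the polynucleotide phosphorylase of the mitochondrial degradosome, stood at 3.52 TPM in replicate 1 and 2.75 TPM in replicate 2.

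Among the genes that modify transfer RNAs 6 of 16 passed, led by Trnt1, which adds the CCA end, at 4.70 TPM in replicate 1 and 2.52 TPM in replicate 2. Mto1 and Osgepl1, which modify bases of the anticodon loop, and the methyltransferase Nsun2 lay between 2.68 and 3.84 TPM in replicate 1 and between 2.07 and 2.72 TPM in replicate 2. Of the ribosomal RNA modification enzymes 1 of 7 passed, Mrm1, a methyltransferase of the large subunit RNA, at 3.63 TPM in replicate 1 and 3.36 TPM in replicate 2. The methyltransferases Trmt2b, Mettl15 and Mrm3 had 0.18 to 1.03 TPM in replicate 1 and 0.18 to 1.02 TPM in replicate 2.

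Of the aminoacyl-tRNA synthetases 7 of 22 passed. Lars2, which charges the mitochondrial leucine transfer RNAs, differed most between the libraries among the named factors, with 8.58 TPM in replicate 1 and 48.75 TPM in replicate 2 and a log2 ratio of -3.12. Gars and Kars, which serve the cytosol as well as mitochondria, had 5.14 and 5.43 TPM in replicate 1 and 3.46 and 2.87 TPM in replicate 2. Nars2, the mitochondrial asparagine enzyme, had 4.82 TPM in replicate 1 and 1.98 TPM in replicate 2.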

How the data were processed

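The authors deposited 1 gene table per library on mm10. Their columns, per the file headers, are expected counts, TPM and effective lengths, posterior mean counts and TPM, and posterior SDs and credibility bounds, treated as score columns; lengths are other values. For the quantifier, aligner and strand setting, no name is given in sources used here. The members, lists and comparisons were chosen with earlier results of these data known; all 37 mitochondrial genes are named, with the 4 highest members of each factor list, the highest and lowest nuclear subunit of each complex and the 4 highest pseudogenes. Symbols, coordinates and sequences came from GENCODE M21, matched on identifiers without version (42462 of 43346 rows). A further 26345 rows that are not Ensembl genes held 0 counts in replicate 1 and 25 in replicate 2 and were left out.

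Expected counts were rounded for edgeR 4.0.16 in R 4.3.3 (TMM over genes with at least 10 counts, prior count 0.5); DESeq2 1.42.0 size factors were an alternative. No p-value was computed. BLAST 2.17.0 compared mitochondrial with all annotated transcripts, keeping at least 100 aligned bases at 90% identity; a pair needed 99% over 95% of the pseudogene. Combined levels add both counts over the mitochondrial gene's effective length. Python 3.11.15 was used with matplotlib 3.10.9, scipy 1.17.1, pandas 2.3.3 and numpy 2.4.6. Scripts were tested on simulated data.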

Additional observations from a re-analysis of the deposited data

How the results depend on the processing

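No paired analysis was possible because there is 1 group. Summing near-identical pseudogenes, an alternative chosen after seeing the data, moved the mean share of counts to 35.4%, the log2 excess of mt-Rnr2 over the median messenger RNA to 2.30 (3.55 as reported), of the heavy strand median over mt-Nd6 to 4.29 (2.61 as reported), and of mitochondrial over nuclear subunits to 8.10 in complex I (7.16 as reported) and 10.55 in complex IV (6.97 as reported); the cause is the alternative's construction, which adds counts. Counts per base of full length gave a mean share of 22.7% in place of the TPM share of 12.3%, and log2 excesses of 7.19 in complex IV and 9.44 in complex V (11.01 as reported); posterior mean TPM gave 8.62 in complex IV; protein-coding genes alone gave a TPM share of 48.0%. Of the 13 messenger RNAs, 5 kept their rank by posterior mean TPM, 6 by counts per base and 0 with pseudogenes summed. The median log2 ratio of the 15 genes was 0.715 as reported, 0.724 with DESeq2 size factors, 0.662 by library total, 0.715 with a prior count of 5, 0.726 without a count filter, 0.753 with pseudogenes summed, 0.196 on the summed mitochondrial count and 1.43 by TPM. Past 2-fold in replicate 1 were 10 genes by TPM, where 31.5% of all genes passed and the median of all genes was 0.66; at 1.5-fold on scaled counts 10 were higher in replicate 1 (19.8% of all genes) and 1 in replicate 2 (18.5%). At 0.5 TPM 8 transcription, 13 RNA processing and 2 ribosomal RNA modification factors passed; at 5 TPM 0, 0 and 0 did, with 0 transfer RNA modification genes and 1 synthetase. In single libraries 3 to 7, 9 to 11 and 2 to 2 of those 3 factor lists passed. The causes of the other changes were not tested, and 2 libraries give no error beyond their spread. The log2 ratio of mt-Rnr1 over the median messenger RNA changed sign within its SD, at 0.65 as reported, -0.60 with pseudogenes summed and -0.34 to 1.65 in single libraries. mt-Co2 and mt-Co3 turned to -0.37 and -0.46 on the summed mitochondrial count.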
